A study of Homo sapiens with 22 samples.

Results

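The regions described here are 9023 sites in K562 cells, a human leukemia cell line, at which a Jun peak and an acetylated histone H3 (H3K27ac) peak were both present after 72 h of treatment and both absent before it. They were selected on the deposited peak lists. A region of the Jun table on chromosomes 1 to 22 or X was taken when it overlapped, by at least 1 bp, a peak of both Jun libraries at 72 h and of no Jun library at 0 or 6 h, and also a peak of both H3K27ac libraries at 72 h and of neither at 0 h. They made up 6.55% of the 137719 Jun regions on these chromosomes. Of the 36516 regions that met the Jun condition alone, called late Jun regions below, they were 24.7%. Of the late Jun regions, 1727 (4.73%) had an H3K27ac peak in both libraries at 0 h and are called previously acetylated. A further 20937 (57.3%) had none in any H3K27ac library at 0, 6 or 72 h and are called never acetylated, and 4829 (13.2%) belonged to neither class. These names rest on peak calls alone, and 2631 of the never acetylated sites overlapped a region of the H3K27ac table.

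All cells were labelled wild-type K562 and were grown in RPMI with 10% serum. They received 25 nM PMA, a phorbol ester that activates protein kinase C and moves these cells toward megakaryocytes, over 0, 6 or 72 h, and were fixed with formaldehyde. Chromatin was profiled by CNR in the titles, read here as CUT&RUN, where an antibody directs a nuclease to cut out the DNA beside a protein or mark. All 3 time points were sampled for Jun, H3K27ac and CTCF, but not 6 h for Rad21, giving 22 libraries in 11 groups of 2. The labels do not say whether the libraries of a group came from separate cultures, so p-values measure only the spread between these libraries, which may be technical. A single line served as the model, so the results are of K562 cells alone.

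Jun is a subunit of AP-1, a dimer of Jun, Fos, ATF or Maf family proteins that binds a short palindromic DNA element and is activated downstream of protein kinase C and MAP kinases. H3K27ac is a mark of active enhancers and promoters. CTCF is a zinc-finger protein that binds insulators, and Rad21 is a subunit of cohesin, the ring-shaped complex that holds chromatin loops and often stops at CTCF sites but is also found at active enhancers.

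Sequence could be read only for the sites that lie on an annotated gene start. In the RefSeq promoter table (GRCh38.p14), which covers 250 bases before to 50 after each start, 194 promoters were overlapped by 173 of the sites. The 250 bases before the start are printed for 7 of them, to show where the AP-1 element TGACTCA lies at a promoter that gained Jun and acetylation. The first 5 are the protein-coding promoters with the highest Jun level at 72 h among those that hold an AP-1 element, and the last 2, KRT75 and SSUH2, are the highest of all, without an element in this window. They are written 5′ to 3′ on the gene's strand, with each AP-1 element, in either orientation, in capitals.
SORBS2: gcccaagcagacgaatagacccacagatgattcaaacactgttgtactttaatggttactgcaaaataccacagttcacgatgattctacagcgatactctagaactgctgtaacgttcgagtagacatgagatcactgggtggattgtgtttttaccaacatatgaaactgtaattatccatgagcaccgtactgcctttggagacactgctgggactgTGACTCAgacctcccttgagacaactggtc
CPA4: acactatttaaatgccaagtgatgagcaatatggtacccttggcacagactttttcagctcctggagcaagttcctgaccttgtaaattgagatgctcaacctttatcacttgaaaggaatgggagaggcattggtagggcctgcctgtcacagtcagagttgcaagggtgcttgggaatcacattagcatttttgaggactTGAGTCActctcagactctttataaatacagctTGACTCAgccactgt
CSF1R: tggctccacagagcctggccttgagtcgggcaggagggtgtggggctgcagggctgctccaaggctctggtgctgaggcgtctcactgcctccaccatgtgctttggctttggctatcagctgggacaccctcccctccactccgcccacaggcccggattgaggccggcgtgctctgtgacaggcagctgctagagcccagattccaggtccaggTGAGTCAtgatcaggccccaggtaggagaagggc
BCL6: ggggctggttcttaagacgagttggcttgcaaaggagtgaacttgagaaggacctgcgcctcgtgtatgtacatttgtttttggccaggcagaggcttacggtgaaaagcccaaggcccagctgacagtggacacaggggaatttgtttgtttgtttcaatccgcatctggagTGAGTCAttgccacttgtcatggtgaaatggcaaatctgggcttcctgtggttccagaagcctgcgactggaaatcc
DDR1: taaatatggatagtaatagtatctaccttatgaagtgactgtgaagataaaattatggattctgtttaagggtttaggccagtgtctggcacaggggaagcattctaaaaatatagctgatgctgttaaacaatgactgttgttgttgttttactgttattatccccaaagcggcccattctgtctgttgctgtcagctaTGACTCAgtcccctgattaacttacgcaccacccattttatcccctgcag
KRT75: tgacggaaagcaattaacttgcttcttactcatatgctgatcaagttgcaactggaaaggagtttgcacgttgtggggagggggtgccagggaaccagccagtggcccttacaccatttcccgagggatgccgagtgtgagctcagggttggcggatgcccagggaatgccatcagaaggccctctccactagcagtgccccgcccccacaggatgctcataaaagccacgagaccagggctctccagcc
SSUH2: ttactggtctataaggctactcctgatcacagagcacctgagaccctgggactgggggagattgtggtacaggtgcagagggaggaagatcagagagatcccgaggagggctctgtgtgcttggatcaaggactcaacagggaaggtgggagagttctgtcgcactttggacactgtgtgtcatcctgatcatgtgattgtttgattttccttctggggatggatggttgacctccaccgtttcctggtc

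SORBS2 encodes an adaptor protein of the actin cytoskeleton, and its printed window is chr4:185933129-185933378 on the minus strand (GRCh38), with the element starting 30 bases before the gene start. CPA4 encodes a carboxypeptidase and is on the plus strand (chr7:130292911-130293160), with elements starting 48 and 15 bases before the start. CSF1R encodes the receptor of macrophage colony-stimulating factor and is on the minus strand (chr5:150113366-150113615), with the element 34 bases before the start. BCL6 encodes a transcriptional repressor and is on the minus strand (chr3:187736502-187736751), with the element 77 bases before the start. DDR1 encodes a collagen receptor and is on the plus strand (chr6:30888438-30888687), with the element 50 bases before the start. The windows of KRT75, a keratin gene (chr12:52434372-52434621), and SSUH2 (chr3:8652085-8652334) are both on the minus strand.

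Levels are given below in pairs, replicate 1 and replicate 2, in the order of time. At the SORBS2 site (chr4:185932887-185933711), Jun was 1.75 and 1.86 CPM (counts scaled to the TMM-adjusted library total in regions) in the libraries of 0 h, then 1.59 and 1.09 (6 h), then 13.2 and 15.2 (72 h). H3K27ac there was 0.341 and 0.105, then 0.63 and 0.787, then 31.9 and 33.5 CPM, and Rad21 was 0.472 and 1.06 CPM at 0 h and 5.36 and 6.6 CPM at 72 h. Both libraries of 72 h stood above all earlier ones in each of these marks. Rad21 rose by 2.99 ± 0.57 (log2 fold change ± SE, edgeR quasi-likelihood test, Benjamini-Hochberg adjusted p = 0.000635). At the CPA4 site (chr7:130292816-130293361), H3K27ac was 1.14 and 2.0 CPM at 0 h, then 12.8 and 10.2 (6 h), then 58.6 and 59.4 (72 h), with more of the increase present at 6 h than at SORBS2. Jun at CPA4 had a like course, with 1.9 and 2.29 CPM at 0 h, then 6.58 and 6.57 (6 h), then 13.6 and 13.5 (72 h). Rad21 at CPA4 went from 2.36 and 3.59 to 7.44 and 9.61 CPM (log2 fold change 1.53 ± 0.39, adjusted p = 0.00616), but this call was lost without Rad21 72 h replicate 2 and with DESeq2.

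The CSF1R site (chr5:150112374-150113465) started from more Jun, with 4.23 and 5.45 CPM at 0 h, then 6.36 and 8.58 (6 h), then 13.2 and 11.8 (72 h). At DDR1 (chr6:30888249-30888788) the Jun libraries overlapped between times, with 5.69 and 8.89 CPM at 0 h and 7.42 and 8.7 CPM at 72 h, although the site passed the peak rule. BCL6 (chr3:187735931-187736798) was close to this, with 5.1 and 6.59 CPM at 0 h and 8.37 and 8.7 CPM at 72 h. These 2 sites show that absence of a called peak at 0 h did not mean absence of Jun reads. KRT75 (chr12:52434441-52436224) had 4.67 and 3.44 CPM of Jun at 0 h, then 6.36 and 6.39 (6 h), then 25.9 and 21.6 (72 h). Rad21 there went from 0.314 and 0.422 to 5.66 and 4.71 CPM (log2 fold change 3.77 ± 0.67, adjusted p = 0.00034), with no Rad21 peak called in any library. Acetylation at SSUH2 (chr3:8651874-8652708) was late as well, with 0.341 and 0.79 CPM at 0 h, then 3.5 and 4.08 (6 h), then 36.0 and 37.5 (72 h).

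The AP-1 element was present in 24.2% of the 194 promoters that the sites overlapped. It was in 4.92% of all 34961 promoters of the table, in 3.67% of the 327 overlapped by previously acetylated sites and in 31.5% of the 305 overlapped by never acetylated sites. The share was therefore higher than over all promoters in both classes that lacked an acetylation peak at 0 h, and not in the class that had one. The order differed for the ETS element CCGGAAG, which was in 6.19% of the sites' promoters, 27.8% of those of previously acetylated sites, 1.97% of those of never acetylated sites and 10.3% of all. The GATA element AGATAA, read by the GATA factors of erythroid and megakaryocytic cells, was in 18.6%, 8.87%, 14.1% and 10.3% of these groups, in the same order. The RUNX element TGTGGTT was in 8.76%, 2.75%, 3.93% and 4.28%, the TEAD element GGAATG in 16.5%, 11%, 16.4% and 14.0%, the E-box CAGCTG in 24.7%, 17.1%, 21.6% and 18%, and CCAAT in 29.4%, 31.8%, 37.4% and 34.6%. Both strands of the whole promoter window were searched, and none of these motifs contains another. Base composition moved with these shares, since the median GC content was 50.3% in the sites' promoters, 64.3% for previously acetylated, 51.0% for never acetylated and 58.7% for all. The part of composition in the motif shares was not tested.

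**Figure D1:**
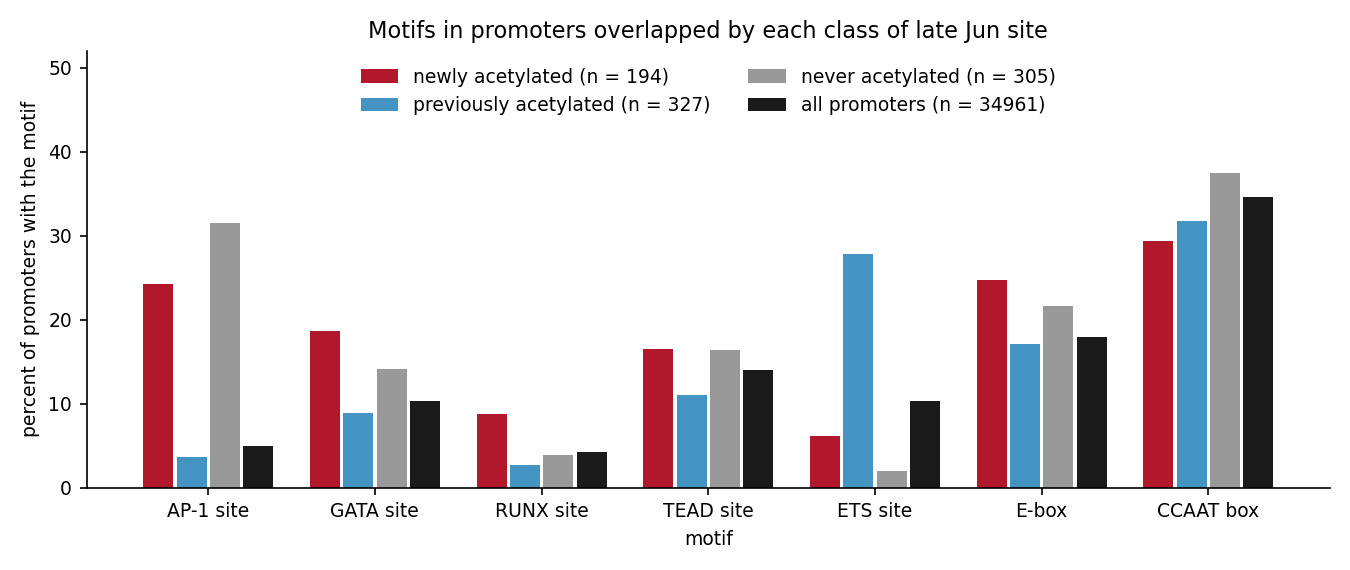
Percent of promoters that hold each motif (y axis) for 7 motifs (x axis), in the promoters overlapped by newly, previously or never acetylated late Jun sites and in all promoters of the table, with the number of promoters in the legend. The AP-1 bars of newly (24.2%) and never acetylated sites (31.5%) stand above those of previously acetylated sites (3.67%) and of all promoters (4.92%), and the ETS bar is highest for previously acetylated sites (27.8%).

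At 41 sites an AP-1 element lay inside both the promoter and the site. Its median distance to the Jun summit was 115 bp in replicate 1 and 127 bp in replicate 2, and 6 elements lay within 50 bp of the summit in each replicate. For the other motifs the medians ran from 84 to 180 bp in replicate 1 and from 77 to 189 bp in replicate 2. CCAAT, also at 41 sites, was at 84 and 118 bp, with 14 and 11 within 50 bp, so the AP-1 element was not the nearest. The SORBS2 AP-1 element was 144 and 151 bp from the summits and that of DDR1 77 and 87 bp, while that of CSF1R was 719 and 536 bp away.

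Counts in regions, which are not the sequencing depth, ranged from 4766421 to 18883962 per library for Jun, from 12634261 to 27266241 for H3K27ac, from 2553677 to 6068421 for CTCF and from 4398797 to 7285286 for Rad21. The highest Jun totals were those of the 72 h libraries and the lowest those of 6 h. The rule thus asked for Jun peaks in the deepest libraries and for none in shallower ones, and the part of depth in the membership was not tested. Pearson's r of log2 CPM between the libraries of a group, across regions, lay between 0.831 (Jun at 6 h) and 0.981 (H3K27ac at 72 h).

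Because Jun and H3K27ac at 0 and 72 h chose the sites, their levels are given as a description without a test. Over the 9023 sites the median Jun level was 2.33 and 2.15 CPM in the 0 h libraries, then 3.18 and 2.92 (6 h), then 6.23 and 6.24 (72 h). Median H3K27ac was 0.568 and 0.580 CPM at 0 h, then 1.82 and 1.62 (6 h), then 6.30 and 6.30 (72 h). Acetylation thus began from a lower level relative to its end than Jun did. At previously acetylated sites, also late by peak calls, median Jun was 4.81 and 5.02 CPM at 0 h, then 4.54 and 4.38 (6 h), then 4.23 and 3.99 (72 h), so there the peak rule took sites whose median Jun level was no higher at 72 h.

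**Figure D2:**
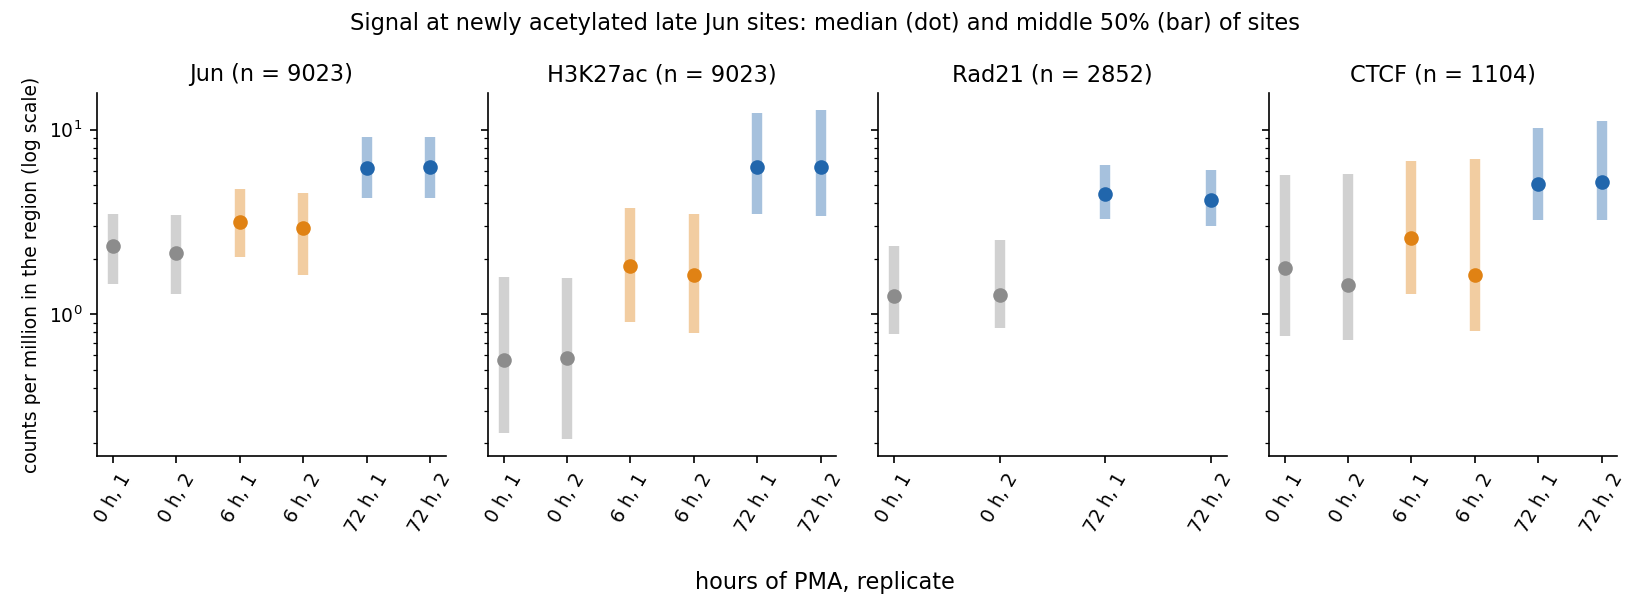
Median level in CPM at the newly acetylated late Jun sites in each library by hours of PMA, for each antibody, with 1 point per replicate. Jun goes from 2.33 and 2.15 CPM at 0 h to 6.23 and 6.24 at 72 h and H3K27ac from 0.568 and 0.580 to 6.30 and 6.30. Rad21 and CTCF are shown only for the 2852 and 1104 sites that overlap a region of their tables.

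Region by region, edgeR placed Jun at 72 h above 0 h (adjusted p under 0.05) at 6801 sites (75.4%) and below it at 26, where the same test placed 28.0% of all 132947 Jun regions above and 25.7% below. The median log2 fold change of the sites was 1.49. For 6 against 0 h, 1520 sites were placed above and 167 below, with a median of 0.41, against 13.1% and 12.2% of all regions. For 72 against 6 h, 4841 were above and 19 below, with a median of 1.04, against 12.7% and 13.5%. H3K27ac was read from the 9454 regions of its table that the sites overlapped. There 8846 were higher at 72 than at 0 h and 123 lower, with a median of 3.35, where 43.4% of all 94865 regions were higher and 38.1% lower. Between 6 and 72 h, 7808 were higher and 151 lower, with a median of 1.82, against 33.1% and 30.8%. Where never acetylated sites overlapped an H3K27ac region, 2016 of 2735 tested regions were higher at 72 than at 0 h and 126 lower, with a median of 2.57. Nothing is read from these counts, since the same libraries chose the sites and all of these comparisons share libraries.

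The 6 h H3K27ac libraries were not part of the rule. Of the sites, 448 (4.97%) had a 6 h H3K27ac peak in replicate 1 and 479 (5.31%) in replicate 2, 206 (2.28%) had 1 in both, and 8302 (92.0%) had none. Levels nonetheless stood higher at 6 h than at 0 h at most sites: both 6 h libraries lay above both 0 h libraries at 6989 sites (77.5%) and below both at 408 (4.52%). The test of 6 against 0 h placed 5866 of the 9454 regions higher (62.0%) and 228 lower, with a median log2 fold change of 1.38, beside 32.3% higher and 26.3% lower over all regions. This comparison shares the 0 h libraries with the rule, which took only sites without a 0 h peak, so it is a description and no independent evidence of a rise. At previously acetylated sites, where a 0 h peak was required, 139 of 1757 regions were higher and 1021 lower. Even among the 8302 sites without a 6 h peak, median H3K27ac was 0.511 and 0.527 CPM at 0 h, then 1.68 and 1.48 (6 h), then 6.01 and 6.05 (72 h). The 206 sites with a 6 h peak in both libraries were above these at all times, with 3.49 and 3.58, 10.2 and 10.1, and 13.2 and 13.7 CPM.

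The rule, which asked for peaks at 72 h and for no H3K27ac peak at 0 h and no Jun peak at 0 or 6 h, favours a late course, so timing is given as a description. The median site had reached 15.8% of its total H3K27ac difference between 0 and 72 h by 6 h (quartiles 6.75% and 32.4%, over 8792 sites with a higher mean at 72 h). For Jun this was 17.4% (quartiles −2.55% and 41.8%, over 8556 sites). Both 6 h Jun libraries lay above both 0 h libraries at 3811 sites (42.2%) and below both at 1096 (12.1%). The rule used the 6 h libraries of Jun but not those of H3K27ac, so these shares are not compared.

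A small group of sites sat at the edge of acetylation that was already there. At 239 sites (2.65%) the overlapping H3K27ac region also held a 0 h peak of both libraries elsewhere along its length. Those regions had a median length of 2180 bp, against 936 bp for the other sites, and median levels of 20.2 and 21.3 CPM at 0 h, then 23.8 and 23.8 (6 h), then 33.2 and 33.7 (72 h). Of these, 78 were higher at 6 h than at 0 h and 76 lower, with a median log2 fold change of 0.02. Without them, 5727 of 8782 were higher and 140 lower, with a median of 1.44. The 5 sites with the highest H3K27ac at 6 h were all of this kind. The highest was within ANKRD28 (chr3:15794274-15794768), a subunit of a protein phosphatase complex, with 277 and 267 CPM at 0 h, then 205 and 249 (6 h), then 165 and 175 (72 h). The site in PSMB1 (chr6:170551401-170551878), a proteasome subunit gene, had 157 and 154, 125 and 131, and 113 and 119 CPM. At both, the region's level was lower at 72 h than at 0 h in both libraries, although a new peak was called at the site. The other 3 were a site in EYA3 and a pair in VAMP4 that share 1 H3K27ac region.

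Rad21 was not used to choose the sites, so its peaks give an independent measure over all 9023. At 0 h, 2.22% of the sites (95% Wilson interval 1.93% to 2.54%) held a Rad21 peak in replicate 1 and 3.64% (3.27% to 4.04%) in replicate 2. At 72 h the shares were 14.7% (14.0% to 15.5%) and 8.29% (7.74% to 8.88%). Both 72 h libraries were above both 0 h libraries. The mean went from 2.93% ± 1.0 to 11.5% ± 4.53 (SD, n = 2 each), a difference of 8.56 percentage points. The exact two-sided permutation p was 0.333, the smallest that 2 against 2 libraries can give. The intervals cover counting error only. Sites with a peak in both libraries of a time numbered 105 (1.16%) at 0 h and 349 (3.87%) at 72 h.

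In peak shares the other classes of Jun region did not follow this course. Over all Jun regions the Rad21 share was 14.9% and 16.1% at 0 h and 18.6% and 14.0% at 72 h. Never acetylated late sites went from 1.95% and 3.01% to 3.5% and 2.46%, and previously acetylated ones from 21.5% and 24.2% to 20.8% and 14.5%. In both, the libraries of the time points overlapped or were lower at 72 h. Within each library, the newly acetylated sites exceeded the never acetylated ones by 0.27 and 0.63 percentage points at 0 h and by 11.2 and 5.83 at 72 h. This margin was 8.06 points larger at 72 h (exact permutation p = 0.333, the smallest possible). Median Jun at 72 h also differed between these 2 classes, at 6.23 and 6.24 CPM against 3.33 and 3.40 CPM for never acetylated sites. The part of the Jun level in the margin was not tested. Against previously acetylated sites the margin was −19.3 and −20.6 points at 0 h and −6.1 and −6.21 at 72 h, and against all Jun regions −12.7 and −12.5, then −3.9 and −5.71. At 72 h the newly acetylated sites thus lay below Jun regions as a whole by those margins in both libraries.

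**Figure D3:**
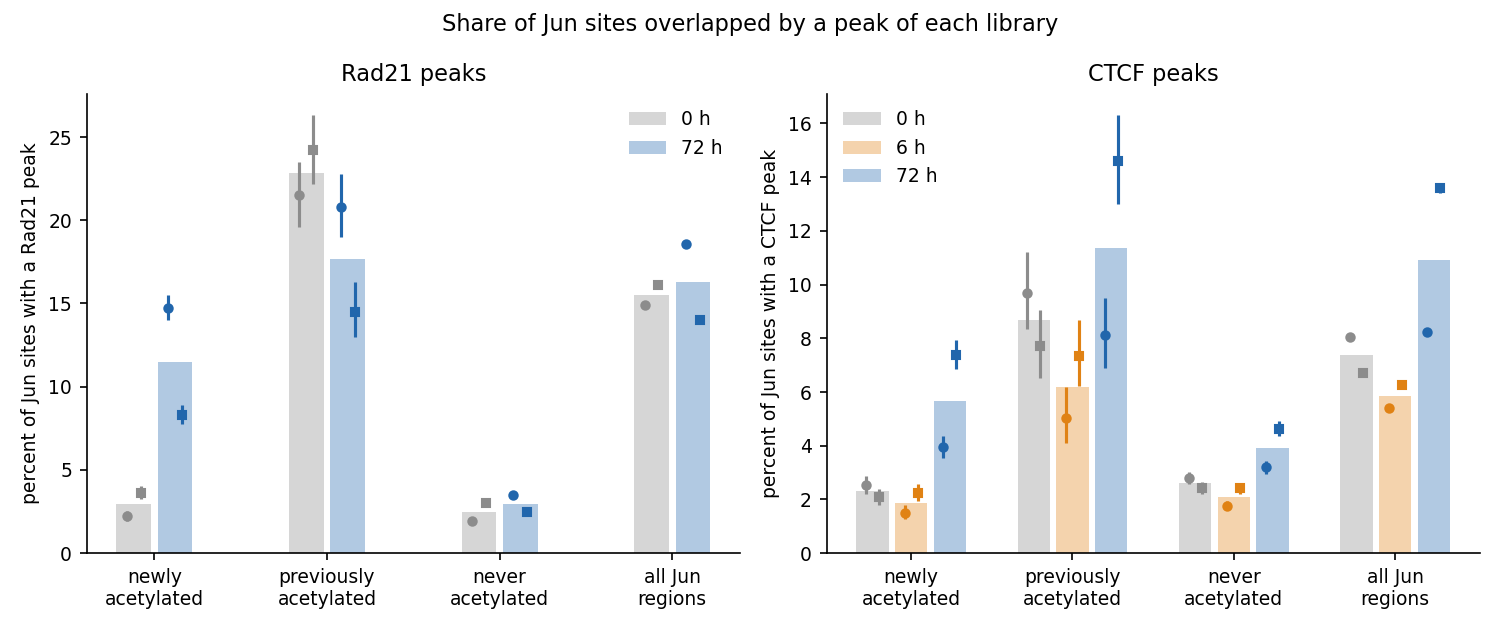
Percent of Jun sites with a Rad21 or a CTCF peak (y axis) in each library, for newly, previously and never acetylated late Jun sites and all Jun regions (x axis), with 1 point per library and time. For newly acetylated sites both Rad21 libraries of 72 h (14.7% and 8.29%) lie above both of 0 h (2.22% and 3.64%).

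Rad21 signal was then tested in the Rad21 table, whose regions cover only part of the sites. How those regions were chosen is not given, and some, as at GREM1 below, had no Rad21 peak in any library. The sites overlapped 2975 Rad21 regions (2852 sites), of which 2758 passed the filter on low counts. Rad21 rose at 1583 (57.4%) between 0 and 72 h and fell at 5, with a median log2 fold change of 1.72, beside 15.4% higher and 7.91% lower and a median of −0.05 over all 83750 regions tested. For never acetylated sites 549 of 1933 (28.4%) rose and 46 fell, with a median of 0.85, so their share of rises was also above that of all regions. For previously acetylated sites 61 of 1066 (5.72%) rose and 57 fell, with a median of −0.03. Per-library medians at the sites were 1.26 and 1.27 CPM at 0 h and 4.47 and 4.15 CPM at 72 h. Whether the region had been a Rad21 peak at 0 h divided the counts. Of 390 tested regions with a 0 h peak, 40 rose and 5 fell, with a median of 0.06. Of 2368 without a 0 h peak, 1543 rose, with a median of 1.88. Taking regions without a 0 h peak favours a rise. The count of rises depended on single libraries. It was 654 without Rad21 72 h replicate 1 and 890 without replicate 2, and DESeq2 called 715. The share of all regions called higher fell as well, to 6.32%, 7.05% and 6.89% in these fits. With total-count scaling the median over all regions moved from −0.05 to −0.25 and that of the sites to 1.53, and the split over all regions became 11.8% higher and 12.3% lower.

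Among sites with Rad21 called and both libraries of a time above both of the other, the largest rises were from 0 counts. Such a region passes the filter on low counts only through its 72 h libraries and could not fall. Its fold change and p-value are therefore given as a description. The sites at GREM1 and TAFA5, given next, had no Rad21 peak in any library, at 0 or 72 h. At a site in GREM1 (chr15:32743463-32744290), a secreted antagonist of bone morphogenetic proteins, Rad21 was 0 in both libraries of 0 h and 3.57 and 3.96 CPM at 72 h. This is at least 13.9-fold higher, against 3 counts over the 0 h group (adjusted p = 0.000363). Jun at GREM1 was 2.92 and 1.43 CPM at 0 h, then 3.4 and 2.37 (6 h), then 17.2 and 15.5 (72 h). A site 431818 bp from TAFA5 (chr22:49183751-49184347) had 0 in both libraries of 0 h and 4.17 and 3.77 CPM at 72 h, at least 14.7-fold higher (adjusted p = 0.000255), a call lost without Rad21 72 h replicate 1. The largest fall was in BPGM (chr7:134676591-134677160), the erythrocyte enzyme that makes bisphosphoglycerate. Rad21 there was 8.65 and 13.7 CPM at 0 h and 5.51 and 4.52 at 72 h (log2 fold change −1.13 ± 0.33, adjusted p = 0.0174), while H3K27ac was 2.84 and 3.06, 2.03 and 2.12, and 10.5 and 10.6 CPM. The sites in NUDT6 (−0.98 ± 0.34, adjusted p = 0.0403) and ATP11B (−0.97 ± 0.34, adjusted p = 0.039) also fell. All 3 falls were lost without either Rad21 72 h library and with DESeq2. They were also lost without 0 h replicate 2 for BPGM and without 0 h replicate 1, or without a filter on low counts, for NUDT6 and ATP11B.

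CTCF peaks were rarer at the sites and their change was smaller. The share of sites with a CTCF peak was 2.52% and 2.08% at 0 h, then 1.51% and 2.24% (6 h), then 3.95% and 7.38% (72 h). Both 72 h libraries were above the others, with means of 2.3% ± 0.311 at 0 h and 5.67% ± 2.43 at 72 h (SD, n = 2). Replicate 2 of 72 h had the most counts of the CTCF libraries (6068421, against 3866685 in replicate 1). Its share over all Jun regions was also higher, at 13.6% against 8.22%. The part of depth in these shares was not tested. The margin over never acetylated sites went from −0.315 to 1.76 percentage points, but that against all Jun regions went from −5.07 to −5.25 (exact permutation p = 1.0). The CTCF regions, like those of Rad21, cover only part of the sites, and some of them had no CTCF peak in any library. There 1104 sites had an entry and 961 regions were tested. Between 0 and 72 h, CTCF rose at 187 (19.5%) and fell at 4, with a median log2 fold change of 1.45, beside 4.07% and 2.72% of 58156 regions. Between 0 and 6 h, 3 rose and 0 fell, with a median of 0.27, beside 2.33% and 0.325%. At an unadjusted p under 0.05 edgeR had 12 lower, and DESeq2 called 0 lower. Of 272 regions with a 0 h peak, 16 rose and 4 fell at 72 h with a median of 0.13. The other 171 rises were among 689 tested regions without a 0 h peak (median 1.84), a choice that favours a rise. The 72 h count rested on single libraries. It fell without a 0 h or 72 h library and rose without a 6 h one, both at the sites and over all CTCF regions. Each of these fits leaves 1 library in a group. The median at the sites was 1.55 or 1.46 without CTCF 0 h replicate 1 or 2. It was 1.52 or 1.43 without 72 h replicate 1 or 2, and 1.52 or 1.53 without 6 h replicate 1 or 2.

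The largest CTCF rise was at a site in AFF3 (chr2:99866342-99866819), a nuclear protein gene, with 0 counts in both libraries of 0 h and 4.61 and 4.21 CPM at 72 h, at least 9.84-fold higher (adjusted p = 0.0175). From 0 counts this region, too, could not fall, so its values are a description. The largest fall was 38335 bp from MRPL14 (chr6:44074539-44075115), where CTCF was 63.7 and 51.2 CPM at 0 h, then 50.8 and 60.2 (6 h), then 22.8 and 28.9 (72 h) (log2 fold change −1.15 ± 0.26, adjusted p = 0.0207). In SERPINB6, a protease inhibitor gene (chr6:2952283-2952952), CTCF was 73.9 and 71.8, 49.9 and 67.5, and 34.3 and 35.3 CPM (−1.07 ± 0.26, adjusted p = 0.0266). These were strong CTCF sites at 0 h that kept a lower signal. All 3 calls were lost when either 0 h or either 72 h CTCF library was left out, and both falls also with total-count scaling and when a mean count of 50 was required.

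Most sites that held Rad21 at 72 h had no CTCF peak in any library, but the same held for 8268 of all 9023 sites. Of these 8268, 84.2% had no Rad21 peak in either 72 h library, against 44.5% of the 755 sites with a CTCF peak. At the 8268 sites without one, the Rad21 share was 0.919% and 2.18% at 0 h and 11.8% and 6.43% at 72 h, and 20 (0.242%) and 196 (2.37%) had it in both libraries of 0 and 72 h. At the 755 sites with a CTCF peak the share was 16.4% and 19.6% at 0 h and 47.2% and 28.6% at 72 h, with 85 (11.3%) and 153 (20.3%) in both libraries. Rad21 was thus higher at 72 h in both libraries with and without CTCF, from a higher start where CTCF was called. Summits at 72 h were close: the median distance between the Jun summits of the replicates was 50 bp, between Jun and Rad21 94 and 100 bp (n = 1329 and 748 sites), between Jun and CTCF 127 and 130.5 bp (n = 356 and 666), and between Jun and H3K27ac 143 and 171 bp. H3K27ac and Rad21 summits lay 176 and 184 bp apart. Peaks entered these distances only where they overlapped the Jun region, which favours nearness to the Jun summit. Whether Rad21 lay nearer to Jun than to acetylation is therefore not read from them.

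Within the sites the Rad21 share ran with the Jun level. When the sites were ranked by mean Jun CPM at 72 h into quartiles, with median Jun of 3.34, 5.23, 7.42 and 11.9 CPM, the share with a Rad21 peak at 72 h was 6.56%, 9.18%, 14.1% and 29.1% in replicate 1 and 3.55%, 5.01%, 8.91% and 15.7% in replicate 2. At 0 h the order was the opposite, from 3.15% in the lowest to 1.11% in the highest quartile in replicate 1 and from 4.65% to 2.84% in replicate 2. CTCF at 72 h went from 3.99% to 4.61% and from 5.76% to 11.2% between the lowest and highest quartile. Site length also rose over the quartiles, with medians of 501, 593.5, 690 and 864 bp, as did H3K27ac at 72 h, from 3.98 to 11.1 CPM. A longer site has more room for an overlap, and the part of length in the Rad21 share was not tested.

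**Figure D4:**
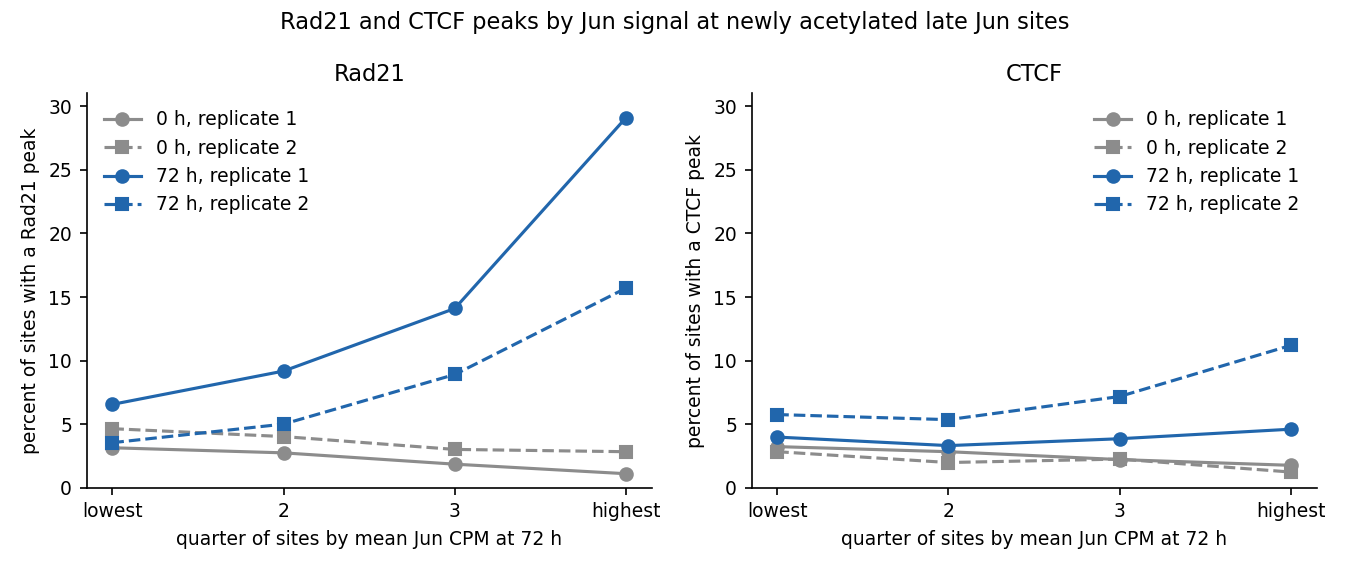
Percent of newly acetylated late Jun sites with a Rad21 (left) or CTCF (right) peak against the quartile of mean Jun CPM at 72 h, for each library of 0 and 72 h. Rad21 at 72 h climbs from 6.56% to 29.1% in replicate 1 and from 3.55% to 15.7% in replicate 2, while both 0 h lines fall.

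The 8 sites with the highest Jun at 72 h were led by a site in LAMC3 (chr9:131011078-131012722), a laminin chain gene of the extracellular matrix. Jun there was 20.7 and 18.9 CPM at 0 h, then 33.1 and 23.2 (6 h), then 63.9 and 67.1 (72 h). H3K27ac was 2.33 and 2.27, then 6.86 and 6.05, then 85.3 and 95.2 CPM. Both marks were in order of time in both libraries. Rad21 at this site rose from 7.23 and 6.97 to 25.3 and 18.7 CPM (log2 fold change 1.63 ± 0.28, adjusted p = 0.000228). CTCF was 5.1 and 2.17 CPM at 0 h, then 6.15 and 6.1 (6 h), then 15.9 and 15.7 (72 h) (2.05 ± 0.40 for 72 against 0 h, adjusted p = 0.0102, lost without CTCF 0 h replicate 2 or 72 h replicate 2).

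The next site lay 50611 bp from TOP3B, a topoisomerase gene (chr22:22033399-22034282), with Jun at 14.3 and 11, 13.4 and 12.6, and 58.9 and 56.9 CPM. Jun did not stand higher at 6 h there, while H3K27ac was 1.02 and 1.21, 3.85 and 2.76, and 49.4 and 53.1 CPM. Rad21 rose from 5.35 and 6.33 to 31.6 and 27.3 CPM (2.34 ± 0.28, adjusted p = 5.88e-06). A site in CACNA1E (chr1:181395289-181396815), a calcium channel gene, was late in both marks. Jun was 8.02 and 6.16, 7.49 and 6.93, and 57.2 and 46.5 CPM, and H3K27ac 0.227 and 0.422, 0.84 and 0.443, and 28.1 and 29.9 CPM. A site 28264 bp from ITGB6, an integrin subunit gene (chr2:160228537-160230063), had both 6 h Jun libraries above those of 0 h, with Jun at 7.44 and 7.74, 15.2 and 18.8, and 41.7 and 43.2 CPM. H3K27ac there was 0.909 and 0.738, 6.51 and 6.64, and 62.1 and 75.9 CPM, and Rad21 rose from 0.943 and 0.422 to 5.8 and 7.92 CPM (3.22 ± 0.54, adjusted p = 0.000212).

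The site in GNAZ and RSPH14 (chr22:23109744-23110377), where GNAZ encodes a G protein subunit, had Jun at 5.83 and 6.45, 7.49 and 14.6, and 38.2 and 38.3 CPM and H3K27ac at 1.59 and 2.27, 12.7 and 9.6, and 68.8 and 71.9 CPM. Rad21 rose there by 1.35 ± 0.30 on the log2 scale (adjusted p = 0.00253). A rise of Rad21 was not found at every strong site. At the site 97406 bp from VPREB1 (chr22:22342922-22344371), Rad21 was 5.98 and 12 CPM at 0 h and 8.63 and 10.6 at 72 h (adjusted p = 0.823). CTCF there was high throughout, at 54.0 and 66.8, 59.9 and 69.2, and 72.3 and 67.7 CPM.

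Of these 8 sites, 5 lie on the parts of chromosomes 9 and 22 around ABL1 and BCR, whose fusion is amplified in K562. The 2 on chromosome 9 span chr9:130740421-131012722, including a site in ABL1 itself with Jun at 47.0 and 45.1 CPM at 72 h, and the 3 on chromosome 22 span chr22:22033399-23110377. These segments were chosen after their values were seen. Regions without a peak inside them had, per kb, 3.85 and 3.44 times (chromosome 9) and 3.4 and 2.66 times (chromosome 22) the median Jun CPM of such regions elsewhere at 0 h. For Rad21 at 0 h these ratios were 3.83 and 3.22, and 3.15 and 2.95, and for CTCF 3.27 and 2.63, and 2.42 and 2.59. At 72 h, the time by which the sites were ranked, the Jun ratios were lower, at 1.82 and 2.11 on chromosome 9 and 2.15 and 2.09 on chromosome 22. Fewer regions there lacked a peak at 72 h (11 in each library on chromosome 9, against 25 at 0 h), so the regions behind the ratios differ between times. For H3K27ac the ratios at 0 h were 1.23 and 1.17 on chromosome 9 and 0.709 and 0.71 on chromosome 22. At 72 h they were 0.833 and 1.06, and 1.28 and 1.21. Background of Jun was thus above that elsewhere at both times, by unequal factors, while that of H3K27ac was not above it throughout. The part of background in the rank of these 5 sites and in their change was not tested.

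Most sites were far from gene starts. The median distance to the nearest start was 26752 bp, against 7548 bp for previously acetylated, 27768 bp for never acetylated and 22997 bp for all Jun regions, and 76.4% of 8602 sites on chromosomes of the promoter table were over 10 kb away. A promoter was overlapped by 2.01% of sites, 15.6% of previously acetylated, 1.37% of never acetylated and 6.8% of all. In position the sites were thus close to the never acetylated class. They were longer than these, with a median of 633 bp (range 220 to 1855) against 493 bp. Some were grouped, as 2064 (22.9%) lay within 10 kb of another, although 8725 of the 8872 H3K27ac peaks of replicate 1 that held a site held 1 only. The share of a chromosome's Jun regions that were members ran from 4.41% on chromosome 19 to 7.95% on chromosome 20.

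**Figure D5:**
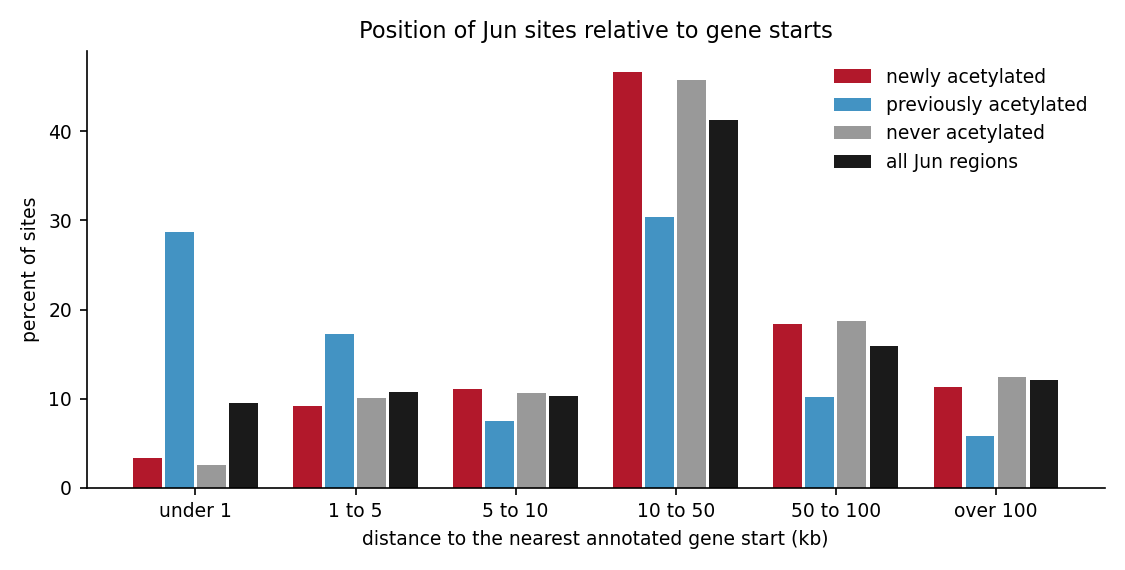
Percent of Jun sites (y axis) by distance to the nearest annotated gene start in kb (x axis), for newly, previously and never acetylated late sites and all Jun regions. Of newly acetylated sites 3.32% lie under 1 kb from a start and 46.7% at 10 to 50 kb, against 28.7% under 1 kb for previously acetylated sites.

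Of the sites, 4734 (52.5%) lay within the span of a protein-coding gene. The annotation used has no exons or introns, so a finer place is not given. Such spans numbered 2970, 14.9% of 19974 coding genes, and their median length was 86.9 kb against 24.2 kb for all, so long genes held more sites. Among the genes with the most were CAMTA1, a transcription factor gene (17 sites over 984 kb), LTBP1 (16 over 453 kb), AFAP1, an actin-binding protein gene (14 over 181 kb) and CACNA1E (14 over 490 kb). RAD51B also held 14.

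Sites were next counted at genes of listed processes, within the span or 10 kb of it, where 20.9% of all coding genes (4181) held a site. The lists were not tested against this share, and gene length, which moves with it, differed between them. Of 29 megakaryocyte and platelet genes, 7 held a site, 22 sites in all. H3K27ac was higher at 6 h at 18 of these, Jun at 72 h was higher at 18, and Rad21 rose at 6 of 8 tested. Over all sites the same counts were 5805 higher and 216 lower of 9021, and 1536 of 2657 for Rad21. The strongest was in LTBP1, which encodes a matrix protein that stores latent TGF-beta (chr2:33342090-33343117). Jun at LTBP1 was 3.35 and 4.87 CPM at 0 h, then 4.54 and 3.28 (6 h), then 17.3 and 16.0 (72 h), and H3K27ac 1.53 and 0.738, 4.34 and 3.89, and 38.0 and 46.5 CPM. Rad21 at LTBP1 rose from 2.04 and 1.27 to 8.04 and 6.6 CPM (2.1 ± 0.44, adjusted p = 0.00154). The site in SPARC, a matrix protein of platelet granules (chr5:151671995-151672634), was earlier, with H3K27ac at 0.341 and 0.316, 6.58 and 5.27, and 17.3 and 21.1 CPM and Jun at 0.292 and 0.717, 3.18 and 2.55, and 5.66 and 5.43 CPM. A site 1562 bp from PF4, the chemokine of platelet alpha granules (chr4:73983687-73984359), had H3K27ac at 2.44 and 2.58, 7.49 and 8.66, and 13.4 and 14.4 CPM.

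Of 18 megakaryocyte transcription factor genes 6 held 26 sites, with H3K27ac at 6 h higher at 16 and lower at 1 and Rad21 risen at 3 of 8. ETS1 (chr11:128579813-128581073) had Jun at 4.08 and 2.87, 2.5 and 2.74, and 16.6 and 18.1 CPM and H3K27ac at 0.511 and 0.105, 1.68 and 0.64, and 14.0 and 15.0 CPM, late in both marks. ERG (chr21:38626048-38626753), another ETS family factor, had Jun at 2.04 and 0.573, 2.72 and 5.11, and 10.8 and 13.8 CPM, with H3K27ac of only 4.02 and 3.31 CPM at 72 h. RUNX1 (chr21:34865326-34866304) had more acetylation at the start, 3.69 and 3.32 CPM, and 5.53 and 2.36 at 6 h, where the libraries of the 2 times overlapped, and 12.4 and 11.1 at 72 h. Of 23 erythroid genes 4 held a site, 5 sites in all. H3K27ac at 6 h was higher by edgeR at 0 of them (1 at an unadjusted p under 0.05, and 0 by DESeq2) and lower at 1. The lower site was in ALAS2 (chrX:55008722-55009198), the first enzyme of erythroid heme synthesis, with H3K27ac at 1.99 and 2.16, 0.98 and 1.03, and 3.11 and 2.95 CPM. Jun at ALAS2 was 2.48 and 4.16, 1.13 and 0.912, and 2.57 and 2.33 CPM, so the libraries of 0 and 72 h overlapped.

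Of 23 genes for protein kinase C and other diacylglycerol receptors, the direct targets of phorbol esters, 7 held 16 sites. The median length of these genes was 118 kb, against 24.2 kb for all. H3K27ac at 6 h was higher at 13 and Rad21 had risen at 4 of 8 tested. In PRKCE (chr2:45743314-45744240), Jun was 2.63 and 3.87, 5.22 and 4.56, and 17.5 and 17.6 CPM and H3K27ac 0.227 and 0.527, 1.12 and 0.935, and 30.4 and 34.5 CPM. Rad21 in PRKCE rose from 0.157 and 1.06 to 9.53 and 6.79 CPM (3.85 ± 0.58, adjusted p = 6.43e-05). In PRKCA (chr17:66547163-66547935), both marks were well above 0 h by 6 h, with Jun at 1.17 and 1.0, 6.36 and 5.11, and 11 and 10.8 CPM and H3K27ac at 0.511 and 1.0, 4.27 and 4.18, and 11.4 and 10.8 CPM. Rad21 also rose at the site in PRKCH (chr14:61476658-61477265), from 4.56 and 2.74 to 15.2 and 10.2 CPM (1.77 ± 0.35, adjusted p = 0.000905).

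Of 16 MAP kinase feedback genes 6 held 7 sites, and H3K27ac at 6 h was higher at all 7. An example lay 6057 bp from DUSP5, a phosphatase of ERK (chr10:110491387-110491849), with H3K27ac at 0.284 and 0.211, 3.08 and 2.02, and 15.7 and 14.9 CPM. Of 17 AP-1 family genes 5 held 6 sites, with H3K27ac at 6 h higher at 4. In FOSL2, a Fos family gene (chr2:28406506-28407360), Jun was 1.46 and 1.72, 3.18 and 3.28, and 8.27 and 8.7 CPM and H3K27ac 0.568 and 0.685, 1.47 and 2.12, and 13.2 and 14.7 CPM. In ATF3, a stress-induced partner of Jun (chr1:212586470-212588106), Rad21 rose from 0.472 and 2.32 to 7.29 and 4.71 CPM (2.20 ± 0.55, adjusted p = 0.00627), a call lost without Rad21 72 h replicate 1 and with DESeq2.

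Integrin and cell spreading genes, the list with the most genes, held 37 sites at 15 of 34 genes, with H3K27ac at 6 h higher at 24, Jun higher at 72 h at 32 and Rad21 risen at 4 of 7. In ITGB5, an integrin subunit (chr3:124858554-124859461), H3K27ac was 2.27 and 2.37, 8.68 and 6.55, and 48.5 and 53.2 CPM. In MYH9, the nonmuscle myosin heavy chain of platelets (chr22:36364234-36364749), it was 2.44 and 3.43, 19.6 and 20.5, and 30.8 and 33.2 CPM, so most of the difference was present at 6 h. In ITGA2, the collagen-binding integrin subunit of platelets (chr5:53031639-53032433), H3K27ac was 0.114 and 0.369, 1.68 and 1.48, and 11.7 and 11.2 CPM, later than in MYH9. Rad21 at a site 177 bp from TPM4, a tropomyosin gene (chr19:16066774-16067360), rose from 1.73 and 2.11 to 10.9 and 8.29 CPM (2.33 ± 0.40, adjusted p = 0.00025).

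Of 20 matrix protease and plasminogen genes 7 held 11 sites, with H3K27ac at 6 h higher at 9 and Rad21 risen at 1 of 3. That was 3387 bp from MMP14, a membrane-bound collagenase (chr14:22851146-22851869), where Rad21 rose from 1.42 and 1.06 to 8.34 and 6.6 CPM (2.56 ± 0.46, adjusted p = 0.000405) and H3K27ac was 1.65 and 1.32, 5.6 and 5.51, and 28.4 and 25.2 CPM. In MMP9, a gelatinase (chr20:46007935-46009022), H3K27ac was 0.0568 and 0, 1.89 and 3.15, and 5.1 and 3.53 CPM. Of 17 NF-kappaB genes measured 5 held 7 sites, with H3K27ac at 6 h higher at 5 and lower at 1, and of 2 Rad21 regions tested neither was called (median log2 fold change −0.88). In TNIP1, an inhibitor of NF-kappaB signalling (chr5:151038698-151039181), it was 0.852 and 1.26, 6.37 and 6.84, and 33.2 and 35.8 CPM. In TRAF1, a receptor adaptor (chr9:120924804-120925431), acetylation was highest at 6 h, with 2.04 and 1.11, 6.65 and 7.23, and 4.96 and 4.99 CPM.

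The rule has a threshold in the peak calls. Just inside it, the members with the lowest peak score at 72 h had a −log10 q of 2.35 near PAX7 (chr1:18762016-18762588), 2.61 in SSH1 (chr12:108794151-108794558) and 2.64 in JARID2 (chr6:15358900-15359728). Jun at JARID2 was 9.19 and 6.45, 8.4 and 5.84, and 6.99 and 6.07 CPM, with no increase. Just outside it were 9535 regions that missed the rule in 1 of the 10 libraries it used, 2410 of them in Jun 6 h replicate 2. The strongest of these, chr1:115428527-115430283, had Jun at 6.71 and 8.89, 13.6 and 25.2, and 66.8 and 57.9 CPM, and chr14:100987980-100989404 had 8.46 and 9.32, 37.9 and 59.7, and 62.4 and 60 CPM. The peak rule therefore left out some sites with as much Jun at 72 h as the strongest members because a peak was already called in 1 library at 6 h.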

How the data were processed

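Libraries were assigned to groups by their titles. The authors deposited raw counts per region and library in 1 table per antibody, with their log2 fold changes, adjusted p-values and region labels, and 1 peak list per library with each peak's fold enrichment (a ratio), −log10 p-value and −log10 q-value, per the file headers. The submitters' processing notes name Trim Galore 0.4.3, BWA 0.7.17, SAMtools 1.9, deepTools 3.0.1, MACS2, bedtools 2.26 and the builds hg19 and hg38, without their order. Region positions fit hg38 only, and coordinates are given 1-based, which is 1 above the deposited start. How regions were built and reads counted is not given in the sources used here.

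The members, gene lists and named regions were chosen with earlier results of these data known. Named regions were the members with the highest Jun at 72 h or H3K27ac at 6 h, the largest called Rad21 and CTCF changes, the strongest member at each listed gene, the genes with most members and those beside the peak threshold, and a few were passed over in the text. For promoters they were the highest in Jun. Counts were tested with edgeR 4.0.16 in R 4.3.3 (filterByExpr, TMM, glmQLFTest, Benjamini-Hochberg over all regions, adjusted p under 0.05), all times of an antibody in 1 fit. Members took the values of regions overlapping by at least 1 bp (for lists and named sites, the region with the largest overlap). CPM used TMM library sizes. Peak shares were compared over libraries by exact permutation. The fit was tested on simulated counts. Alternatives were DESeq2 1.42.0, total-count scaling, no filter, a mean count of at least 50, stricter peaks, a larger overlap, a replicate block and leaving out each library. Gene spans and promoters came from RefSeq (GRCh38.p14). Sequences of sites away from promoters were not used here.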

Additional observations from a re-analysis of the deposited data

How the results depend on the processing

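The number of sites (9023) was 5039 with peaks of −log10 q of at least 10, of which 2539 were among the 9023, and 7316 when a peak had to cover at least 50% of the Jun region, of which 4047 were. It was 9234 to 11433 when 1 library was left out of the rule. The mean Rad21 peak share of 2.93% at 0 h and 11.5% at 72 h became 1.06% and 4.02% with this larger overlap and 1.25% and 4.24% with the stricter peaks, so it stood higher at 72 h in each. Single libraries left out gave 2.9% to 3.27% and 10.3% to 13.9%. The CTCF share became 0.827% and 1.95% with the larger overlap, and 2.33% to 2.57% and 5.35% to 6.17% without single libraries.

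Of the 1583 Rad21 rises, 715 were called by DESeq2, 681 with the larger overlap and 56 when regions needed a mean count of 50, where few regions were tested. Leaving out single libraries gave 654 to 1549. The median log2 fold change at the sites of 1.72 became 0.43 with that mean count. For CTCF at 72 h the median of 1.45 became 0.40 with the mean count and 0.80 with the larger overlap, and for CTCF at 6 h that of 0.27 became 0.08 with total-count scaling, 0.11 with the mean count and 0.04 to 0.42 without single libraries. The 5 falls became 0 with DESeq2, 17 with total-count scaling, 3 without a filter, 3 with the mean count, 2 with the larger overlap and 0 to 9 without single libraries. The 187 CTCF rises at 72 h became 50 with DESeq2, 423 with total-count scaling, 19 with the mean count, 80 with the larger overlap and 0 to 373 without single libraries. The 4 falls became 2 with DESeq2, 0 with total-count scaling, 0 with the mean count and 0 to 13 without single libraries. For CTCF at 6 h, rises were 1 with DESeq2, 0 with the mean count and 0 to 10 without single libraries, and falls 1 with total-count scaling and 0 in each left-out fit. For H3K27ac at 6 h, 5027 to 5565 higher and 175 to 220 lower regions were called without single libraries, and 110 lower with total-count scaling. That scaling moved the median of all regions from 0.20 to 0.53 (32.3% higher and 26.3% lower to 42.0% and 16.5%) for H3K27ac at 6 h and from 0.03 to 0.26 (4.07% and 2.72% to 11.3% and 1.07%) for CTCF at 72 h, and it turned the H3K27ac change at 6 h at the PSMB1 site from −0.28 to 0.06. The cause of these differences was not tested. Jun counts, which only describe the sites, ranged without single libraries from 871 to 1249 higher at 6 h and from 5013 to 7094 at 72 h.

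Libraries with the same number did not deviate together (correlations of their deviations from −0.022 to 0.124), so they were not taken as pairs. With a replicate block, 1630 Rad21 regions rose and 8 fell, 251 CTCF regions rose and 11 fell at 72 h, and 5 CTCF regions rose at 6 h. With 2 libraries a group and a few CPM at most sites, low Rad21 and CTCF signal limits what could be called.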

Other observations

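The authors' deposited table gives each region a label as well as a fold change, and at the sites these did not run together. In the authors' deposited table for H3K27ac, 1437 of the sites carried the label downEarly with a median deposited log2 fold change of 4.04 at 72 h, and 4297 carried upLate with a median of 4.09. The same deposited table had downLate at 332 (median 3.99), upEarly at 516 (4.08) and static at 2441 (1.15). In the authors' deposited table for Jun, 7192 sites were labelled static (median deposited log2 fold change 0.90 at 72 h) and 917 upLate (2.47), while all 6902 Jun regions with the label upLate had a deposited median of −0.59. The authors' deposited table for Rad21 labelled 300 of the sites up (2.62) and 2552 static (0.45). The labels were therefore not used for any comparison.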
